A study of Mus musculus with 24 samples.

Results

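Plasmacytoid dendritic cells (PDC) and canonical CD8+ dendritic cells (C_CD8), both sorted from the spleens of wild-type mice, were compared gene by gene in 5 of the 24 libraries of the series. The members were chosen by the subset and genotype labels: 2 PDC WT libraries, from experiment batches A and B, and 3 C_CD8 WT libraries, from batches B, C and D. Batch B was the only batch with both subsets, so every difference over the 5 libraries was also read within it, from 1 PDC WT and 1 C_CD8 WT library. Of 39017 genes in the count table, 18093 had enough reads to be tested.

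The mice were F1 animals of a cross of C57BL/6 with FVB/N, and WT stands for Flt3 +/+. A second set of 2 PDC and 3 C_CD8 libraries from the same batches came from Flt3 ITD/+ mice of the same cross (ITD, internal tandem duplication), in which 1 copy of the receptor carries the duplication. The 14 remaining libraries, of the same 2 genotypes, held non-canonical CD8+ cells and the Esam-high and Esam-low fractions of CD11b+ cells. They entered the fit to estimate the spread between replicates. Replicates are independent experiments, per the design text of the series. The labels name neither the gates of the sort nor the animals or their sex, and the sources used here give no ages.

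PDC circulate through lymphoid organs as round cells with a large endoplasmic reticulum, and they are known for the large amounts of type I interferon they release when the endosomal receptors TLR7 and TLR9 meet viral nucleic acid. Their development depends on the E protein TCF4, which is held in check by the inhibitor ID2. Canonical CD8+ dendritic cells are the spleen's type 1 conventional dendritic cells (cDC1), which depend on BATF3, take up dead cells, present their antigens to CD8 T cells and make interleukin-12 (IL-12).

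The 5 libraries held 22248404 and 18843675 counts in PDC WT A and B, and 20068381, 21270127 and 19738620 counts in C_CD8 WT B, C and D, where the letter is the batch. Levels are given as CPM (counts scaled to library size, here with TMM factors), always in this order of libraries. CPM is not corrected for gene length, so levels are compared between libraries and not between genes. Differences are PDC WT minus C_CD8 WT on the log2 scale, with their standard error (SE), from a single edgeR quasi-likelihood model of all 24 libraries. Calls were made at a Benjamini-Hochberg adjusted p under 0.05, taken over the 18093 genes. In bulk libraries such as these, fewer cells of a type and less RNA of a gene per cell cannot be told apart.

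The markers matched the labels in all 5 libraries. Siglech, the surface lectin that defines mouse PDC (chr7:55768178-55778925, plus strand, GRCm38), stood at 5388 and 4857 CPM in the PDC WT libraries and at 5.46, 6.76 and 7.03 CPM in the C_CD8 WT libraries, a difference of 9.64 ± 0.73 (adjusted p = 1.11e-08). Tcf4, which encodes the E protein of the PDC lineage, stood at 1101 and 1174 CPM in PDC WT and 30.2, 26.9 and 34.3 CPM in C_CD8 WT libraries, 5.22 ± 0.22 higher on the log2 scale (adjusted p = 9.44e-12). In both genes the lowest PDC WT library lay far above the highest C_CD8 WT library. Xcr1, the chemokine receptor of cDC1 (chr9:123852315-123862029, minus strand), had 1.38 and 1.48 CPM in PDC WT and 657, 1223 and 1074 CPM in C_CD8 WT libraries, a difference of -9.42 ± 0.92 (adjusted p = 2.52e-07). Batf3, the factor that cDC1 need to develop (chr1:191097847-191108945, plus strand), had 0.755 and 0.295 CPM in PDC WT and 94.6, 93.6 and 73.8 CPM in C_CD8 WT libraries, a difference of -7.34 ± 0.56 (adjusted p = 1.24e-08). Both cDC1 markers were near the floor of the PDC WT libraries. Within batch B the log2 differences of the 4 markers were 9.77 for Siglech, 5.28 for Tcf4, -8.69 for Xcr1 and -7.86 for Batf3.

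Because TCF4 belongs to the E proteins, which bind E-box sequences, the promoter windows of the identity genes are shown where they hold the E-box CAGGTG, read on either strand (CACCTG on the other). The windows run from 250 bases before to 50 bases after the RefSeq start site (GRCm38.p6) and were found for 21 of 28 genes on the PDC identity list and for 22 of 27 on the cDC1 identity list. The 8 stretches below are those of PDC identity genes whose match lies before the start site. Each is written 5′ to 3′ on the strand of its gene, with the match in capitals.
Siglech: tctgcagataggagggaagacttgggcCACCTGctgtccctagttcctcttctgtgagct
Bst2: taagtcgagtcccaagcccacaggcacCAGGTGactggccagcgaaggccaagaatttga
Ccr9: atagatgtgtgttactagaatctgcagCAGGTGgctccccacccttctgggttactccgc
Klk1: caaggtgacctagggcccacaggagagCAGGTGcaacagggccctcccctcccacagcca
Cd300c: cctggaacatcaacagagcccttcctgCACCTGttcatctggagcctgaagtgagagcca
Havcr1: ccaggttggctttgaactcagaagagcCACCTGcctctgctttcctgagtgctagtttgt
Mctp2: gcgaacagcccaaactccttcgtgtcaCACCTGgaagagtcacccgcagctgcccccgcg
Paqr5: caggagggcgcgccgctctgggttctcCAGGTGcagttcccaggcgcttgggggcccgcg

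In GRCm38 coordinates these are Siglech at chr7:55768137-55768196 on the plus strand, Bst2 at chr8:71537645-71537704 on the minus strand, Ccr9 at chr9:123767099-123767158 on the plus strand, Klk1 at chr7:44225246-44225305 on the plus strand, Cd300c at chr11:114960542-114960601 on the minus strand, Havcr1 at chr11:46739984-46740043 on the plus strand, Mctp2 at chr7:72306713-72306772 on the minus strand and Paqr5 at chr9:62026776-62026835 on the minus strand. A ninth gene of the PDC list, Klk1b27, had its match after the start site and is not printed. In all, 9 of the 21 PDC windows (42.9%) held CAGGTG, against 1 of the 22 cDC1 windows (4.55%, Mycl) and 20% of all 27025 windows in the table. A further 4 motifs were searched on both strands, none of which holds or lies within CAGGTG. The E-box CAGCTG was held by 9.52% of the PDC windows, 22.7% of the cDC1 windows and 16.1% of all windows. The Ets-type motif GAGGAA was held by 38.1% of the PDC windows, 36.4% of the cDC1 windows and 28.3% of all windows. The AP-1 motif TGANTCA was in 0 of the 21 PDC windows, in 4.55% of the cDC1 windows and in 7.93% of all windows, and the interferon response element, read as GAAA, any pair of bases and GAAA, in 9.52% of the PDC windows, 9.09% of the cDC1 windows and 3.49% of all windows. These are counts of letters in short windows and not of bound sites.

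Across the genome, 6833 of the 18093 genes tested (37.8%) were called between PDC WT and C_CD8 WT cells. Of these, 3300 (18.2%) were higher and 3533 (19.5%) lower in PDC WT cells, and 2308 of the higher and 2380 of the lower genes differed by at least 1 on the log2 scale. The median difference of all genes tested was -0.03, and the median size of the difference was 0.73. The 2 PDC WT and 3 C_CD8 WT libraries did not overlap in 4887 genes with PDC higher (27%) and in 5252 with PDC lower (29%).

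In batch B alone 4118 genes (22.8%) were at least 1 higher and 3825 (21.1%) at least 1 lower on the log2 scale in PDC WT. It gave the same direction for 6811 of the 6833 called genes (99.7%), and 6164 of them (90.2%) were at least 50% as different there as over all libraries. Among genes not called, 76.4% had the same direction in batch B. The batch B libraries are part of the 5, so this shows how far the difference rested on the other batches and is not a separate test. With experiment batch as an additive block, 9596 genes (53%) were called, 4650 higher (25.7%) and 4946 lower (27.3%) in PDC WT cells. This blocked fit kept 6084 of the 6833 calls in their direction.

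**Figure D1:**
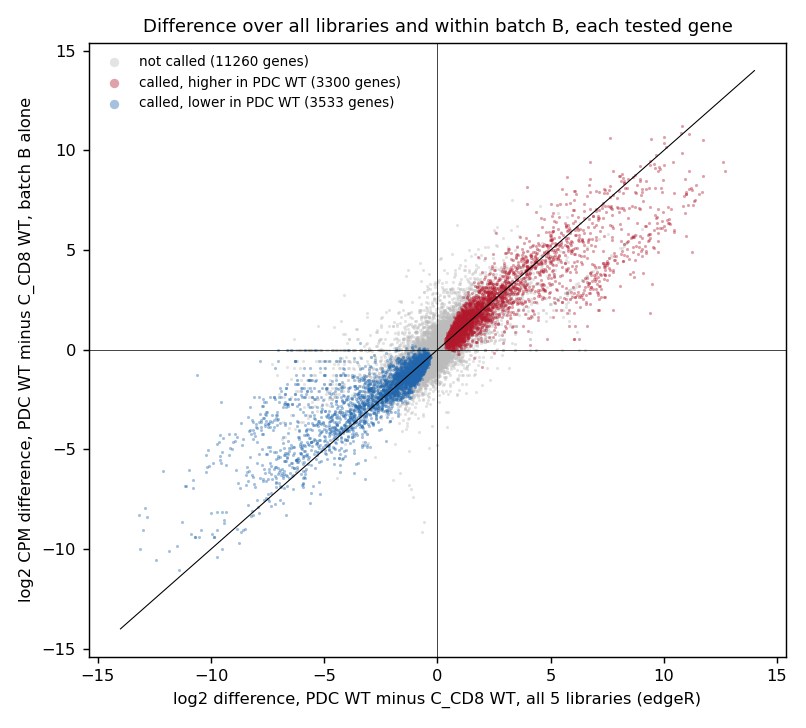
Log2 difference of PDC WT minus C_CD8 WT cells for each of the 18093 genes tested, over all 5 libraries (x axis) and between the 2 batch B libraries alone (y axis, log2 CPM with a prior count of 2). Red points are the 3300 genes called higher and blue points the 3533 called lower in PDC WT, and 6811 of these 6833 lie on the same side of 0 on both axes; the black diagonal marks equal differences.

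All 28 genes on a list of PDC identity genes were higher in PDC WT cells, against 18.2% of all genes tested, with a median difference of 7.53. This and the other gene lists were chosen with earlier results of these data known, so their counts describe the lists and are not separate tests. Cox6a2, a subunit of cytochrome c oxidase, had 252 and 338 CPM in PDC WT and 0.416, 0.671 and 0.0521 CPM in C_CD8 WT libraries, a difference of 9.55 ± 0.51 (adjusted p = 1.57e-10). Mctp2, a calcium-binding membrane protein, had 542 and 530.3 CPM in PDC WT against 0.208, 1.15 and 0.156 CPM in C_CD8 WT libraries, a difference of 9.998 ± 0.83 (adjusted p = 3.31e-08). The surface glycoprotein gene Ly6d, used to mark lymphoid-type PDC precursors, reached 1889 and 1971 CPM in PDC WT and 1.20, 4.93 and 2.08 CPM in C_CD8 WT libraries, a difference of 9.45 ± 1.21 (adjusted p = 6.49e-06). The smallest difference of the list, 1.75 ± 0.15, was that of Pld4, an endosomal nuclease, with 2533 and 2777 CPM in PDC WT and 677, 891 and 803 CPM in C_CD8 WT libraries. Pld4 was thus a gene of both subsets that was higher in PDC WT cells, whereas Cox6a2 and Mctp2 were close to the floor in C_CD8 WT cells.

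Bst2, the tetherin that the PDC antibody PDCA-1 binds, stood at 1089 and 1298 CPM in PDC WT and 40.5, 27.4 and 30.0 CPM in C_CD8 WT libraries, a difference of 5.19 ± 0.24 (adjusted p = 4.52e-11). Ccr9, the chemokine receptor of gut-homing PDC, stood at 1969 and 1009 CPM in PDC WT and 48.8, 74.5 and 66.7 CPM in C_CD8 WT libraries, a difference of 4.56 ± 0.40 (adjusted p = 7.91e-08). All C_CD8 WT values of both genes lay below both PDC WT values. Part of the reads of Klk1 and Klk1b27 could come from other kallikrein genes, since 24% and 14.3% of their 50-base words occur in another gene; both were called higher in PDC WT cells, by 10.74 ± 1.19 and 10.40 ± 0.83.

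Of 27 genes on a list of cDC1 identity genes, 25 were lower in PDC WT cells, against 19.5% of all genes tested, with a median of -5.62. Tlr11, a receptor for protozoan profilin in mice, had 0.0889 and 0 CPM in PDC WT and 172, 426 and 292 CPM in C_CD8 WT libraries. Gcsam, a signalling adaptor first described in germinal centre B cells, had 0.0444 and 0.0984 CPM in PDC WT and 233, 361 and 271 CPM in C_CD8 WT libraries. These are 2 and 3 reads over both PDC WT libraries, so the ratio of C_CD8 WT to PDC WT levels was 6432 for Tlr11 (95% counting interval 1780.2 to 53112) and 4142 for Gcsam (1417 to 20085). Without PDC WT A no Tlr11 read was left and its bound was at least 2035-fold, and without PDC WT B the ratios were 3378 for Tlr11 and 6527 for Gcsam.

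Other cDC1 genes kept sizeable levels in PDC WT cells. Cd8a, whose product gave the subset its name, had 85.1 and 57.2 CPM in PDC WT and 693, 672 and 628 CPM in C_CD8 WT libraries, a difference of -3.22 ± 0.26 (adjusted p = 2.27e-08). Clec9a, the receptor for exposed actin of dead cells, had 53.2 and 61.4 CPM in PDC WT and 184, 314 and 304 CPM in C_CD8 WT libraries, a difference of -2.22 ± 0.36 (adjusted p = 8.56e-05). Cadm1, an adhesion molecule, had 385 and 315 CPM in PDC WT and 665, 781 and 743 CPM in C_CD8 WT libraries, a difference of -1.06 ± 0.24 (adjusted p = 0.00223). The groups did not overlap in any of the 3 genes, but their differences were far smaller than those of Xcr1 or Tlr11. Tlr12 (-0.37 ± 0.59, adjusted p = 0.659) and Mycl (-0.38 ± 0.36, adjusted p = 0.435) were the 2 cDC1 list genes that were not called. Rab7b differed between the PDC WT libraries themselves, at 185 and 11.1 CPM, and its call, a difference of -3.18 ± 1.06 (adjusted p = 0.0241), was lost without PDC WT B and with the groups alone, and the difference was -6.33 without PDC WT A.

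**Figure D2:**
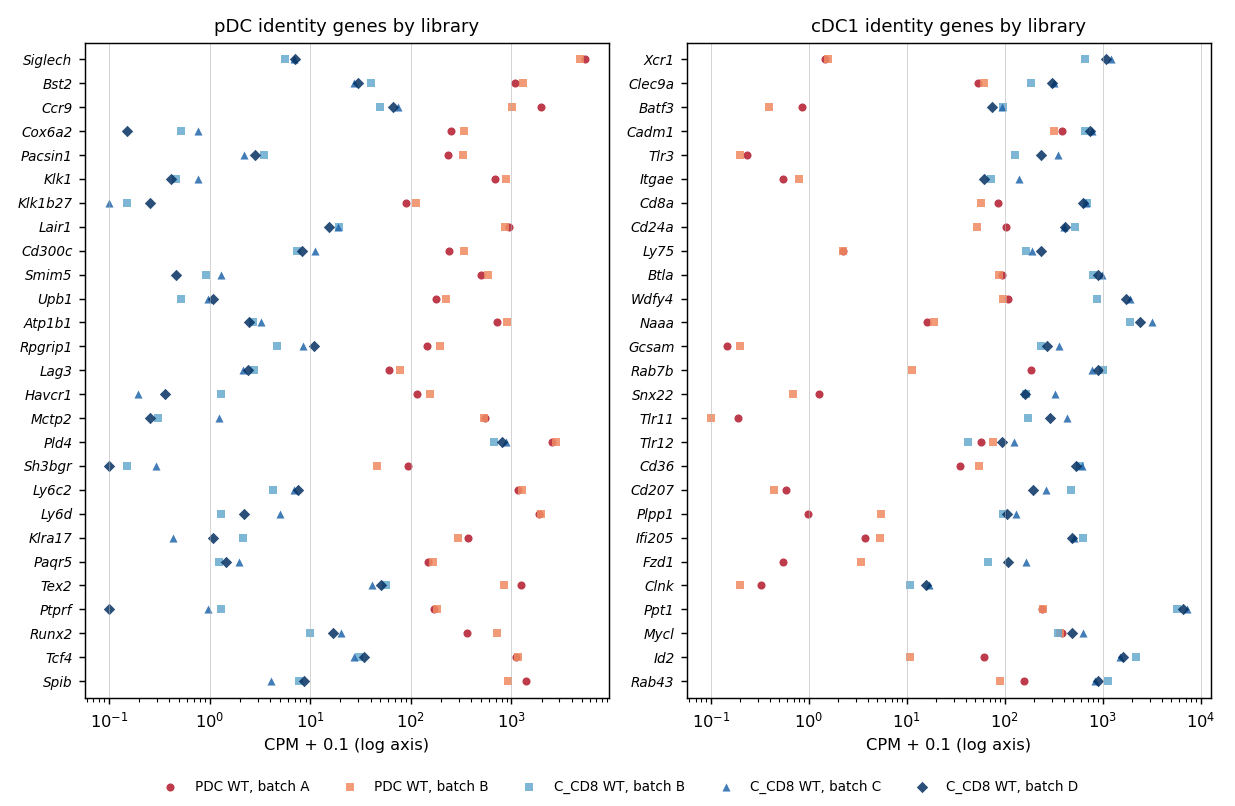
CPM + 0.1 on a log axis of 27 genes of the PDC identity list (left panel) and each gene of the cDC1 identity list (right panel), 1 point per library; red and orange points are PDC WT A and B, light to dark blue points C_CD8 WT B, C and D. All 27 PDC list genes drawn have both PDC WT points to the right of all C_CD8 WT points, and in 25 of 27 cDC1 list genes they lie to the left.

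Transcription factors of the 2 lineages differed in both directions: of 30 on the list, 14 were higher (18.2% of all genes tested), 7 lower (19.5%) and 9 not called, with a median of 0.30. Spib, an Ets factor of PDC and B cells, had 1405 and 927 CPM in PDC WT and 7.65, 3.98 and 8.54 CPM in C_CD8 WT libraries, a difference of 7.44 ± 0.38 (adjusted p = 1.11e-10). Zeb2, a repressor needed for PDC and monocyte development, had 257 and 343 CPM in PDC WT and 9.16, 9.25 and 9.89 CPM in C_CD8 WT libraries, a difference of 4.99 ± 0.38 (adjusted p = 1.06e-08). Runx2, which governs the exit of PDC from bone marrow, had 362 and 714 CPM in PDC WT and 9.89, 20.3 and 16.7 CPM in C_CD8 WT libraries, a difference of 5.11 ± 0.55 (adjusted p = 9.39e-07). In each of these genes the lower PDC WT library lay far above the highest C_CD8 WT library.

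The inhibitor Id2 was the mirror image of Tcf4, with 61.1 and 10.6 CPM in PDC WT and 2172, 1504 and 1625 CPM in C_CD8 WT libraries, a difference of -5.62 ± 0.94 (adjusted p = 0.000126). Its relative Id3 was low in C_CD8 WT cells instead, with 53.1 and 35.1 CPM in PDC WT and 1.61, 1.68 and 2.86 CPM in C_CD8 WT libraries, a difference of 4.42 ± 0.72 (adjusted p = 9.16e-05). The 2 inhibitor genes thus moved in opposite directions. Zbtb46, a factor of conventional dendritic cells, had 3.11 and 3.29 CPM in PDC WT and 277, 319 and 242 CPM in C_CD8 WT libraries, a difference of -6.44 ± 0.25 (adjusted p = 4.2e-12). Spi1, which encodes the myeloid Ets factor PU.1, differed by -2.45 ± 0.27, and the repressor gene Bcl6 by -2.09 ± 0.46, both lower in PDC WT cells. Irf8, a factor that both lineages use, had 3765 and 6201 CPM in PDC WT and 1843, 3575 and 2626 CPM in C_CD8 WT libraries, and its difference of 0.89 ± 0.51 did not pass the test (adjusted p = 0.182). With batch as a block Irf8 was higher in PDC WT cells, by 1.99 ± 0.38 (adjusted p = 0.000417), and its difference within batch B was 1.75. Of the E proteins beside Tcf4, Tcf12 was higher in PDC WT cells by 2.11 ± 0.20 (adjusted p = 1.6e-07).

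The endosomal route to interferon held genes of either direction. On the list of 26 genes, 11 were higher (18.2% of all genes tested), 6 lower (19.5%) and 9 not called in PDC WT cells, with a median of -0.04. Tlr7, the sensor of single-stranded RNA, had 368 and 298 CPM in PDC WT and 1.04, 3.02 and 1.87 CPM in C_CD8 WT libraries, a difference of 7.38 ± 0.55 (adjusted p = 8.58e-09). Tlr9, the sensor of CpG DNA, had 14.6 and 14.9 CPM in PDC WT and 1.56, 5.41 and 3.85 CPM in C_CD8 WT libraries, a difference of 2.03 ± 0.50 (adjusted p = 0.00392). Both were higher in each PDC WT library than in any C_CD8 WT library, Tlr7 by the wider margin. Tlr3, the sensor of double-stranded RNA, ran the other way, with 0.133 and 0.0984 CPM in PDC WT and 127, 348 and 236 CPM in C_CD8 WT libraries, a difference of -10.90 ± 1.27 (adjusted p = 2.11e-06). Tlr13, a mouse sensor of bacterial ribosomal RNA, had 0 and 1.67 CPM in PDC WT and 69.7, 131 and 70.0 CPM in C_CD8 WT libraries, a difference of -6.78 ± 0.78 (adjusted p = 1.95e-06). PDC WT B alone held reads of it among the PDC WT libraries. Without that library the PDC WT group had no Tlr13 read, so the fitted difference of -13.60 there is not a measured size.

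Among the 19 genes of this list that are not Toll-like receptors, 9 were higher (18.2% of all genes tested), 3 lower (19.5%) and 7 not called in PDC WT cells. The lower count was near the share of all genes. Slc15a4, a lysosomal transporter that PDC need for the interferon response, had 363 and 368 CPM in PDC WT and 43.3, 54.0 and 49.7 CPM in C_CD8 WT libraries, a difference of 2.90 ± 0.21 (adjusted p = 5.04e-09). Irf7, the master factor of type I interferon genes, had 347 and 481 CPM in PDC WT and 73.7, 87.9 and 72.4 CPM in C_CD8 WT libraries, a difference of 2.41 ± 0.23 (adjusted p = 1.7e-07). The adaptor gene Pacsin1 was higher by 6.68 ± 0.60, the trafficking chaperone gene Unc93b1 by 1.03 ± 0.21, and the folding chaperone genes Cnpy3 and Hsp90b1 by 0.87 ± 0.18 and 0.76 ± 0.15. The shared signalling genes Myd88 (-0.09 ± 0.22, adjusted p = 0.786) and Irak1 (-0.13 ± 0.11, adjusted p = 0.409) were not called. Irak4, a kinase of the same pathway, was lower, with a difference of -0.73 ± 0.18 (adjusted p = 0.0038), a call that was lost with the groups alone and within batch B. Irf5 was also lower, with a difference of -0.72 ± 0.19 (adjusted p = 0.00583), a call that was lost without PDC WT B.

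Interferon-stimulated genes leaned toward PDC WT cells. Of 28, 14 were higher (18.2% of all genes tested), 3 lower (19.5%) and 11 not called, with a median of 1.18. Ifi44 had 40.7 and 72.7 CPM in PDC WT and 1.35, 1.68 and 1.04 CPM in C_CD8 WT libraries, a difference of 5.37 ± 0.67 (adjusted p = 4.54e-06). Stat2, part of the complex that carries the interferon signal to DNA, had 165 and 297 CPM in PDC WT and 49.4, 81.0 and 67.6 CPM in C_CD8 WT libraries, a difference of 1.81 ± 0.34 (adjusted p = 0.000434). PDC WT B was the higher of the 2 PDC WT libraries in both genes, and the list's count fell to 7 higher and 3 lower without PDC WT B. Usp18, a brake on the interferon receptor, was called (1.82 ± 0.41, adjusted p = 0.00193) with all libraries and not without PDC WT B. Among the lower genes, Samhd1, which degrades nucleotides, had 156 and 175 CPM in PDC WT and 263, 293 and 282 CPM in C_CD8 WT libraries, a difference of -0.76 ± 0.14 (adjusted p = 0.000245). The interferon receptor genes Ifnar1 and Ifnar2 were higher in PDC WT cells by 1.73 ± 0.35 and 2.60 ± 0.15, with 1.12 for Ifnar1 without PDC WT A.

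Genes of MHC class II presentation were lower in PDC WT cells in 11 of 13 cases (19.5% of all genes tested) and higher in 1 (18.2%), with a median of -1.37. The remaining gene, Lgmn, was not called (0.64 ± 0.54, adjusted p = 0.372). The alpha chain gene H2-Aa had 3589 and 2767 CPM in PDC WT and 11659, 10643 and 10865 CPM in C_CD8 WT libraries, a difference of -1.80 ± 0.18 (adjusted p = 3.75e-07). Ciita, the transactivator of these genes, had 64.5 and 134 CPM in PDC WT and 333, 681 and 489 CPM in C_CD8 WT libraries, a difference of -2.33 ± 0.41 (adjusted p = 0.000184). The largest difference of the list was that of H2-Ob, a chain of the peptide-exchange inhibitor H2-O, with 14.7 and 14.4 CPM in PDC WT and 398, 478 and 437 CPM in C_CD8 WT libraries, -4.91 ± 0.18 on the log2 scale (adjusted p = 3.21e-12). Its partner chain gene H2-Oa differed by -0.98 ± 0.15, so the 2 chains of the inhibitor were unequally low. Ctss, the protease that trims the invariant chain, was the gene that was higher in PDC WT cells, at 887 and 812 CPM against 554, 548 and 519 CPM in C_CD8 WT libraries, a difference of 0.65 ± 0.13 (adjusted p = 0.000837). The invariant chain gene itself, Cd74, was lower, with a difference of -1.42 ± 0.13.

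In MHC class I presentation and cross-presentation, 6 of 25 genes were higher (18.2% of all genes tested), 14 lower (19.5%) and 5 not called, with a median of -0.57. The class I heavy chain gene H2-K1 had 3112 and 3188 CPM in PDC WT and 2136, 2033 and 2110.2 CPM in C_CD8 WT libraries, a difference of 0.59 ± 0.15 (adjusted p = 0.00396). Peptide supply ran the other way: Tap1, a subunit of the peptide transporter, had 206 and 253 CPM in PDC WT and 539.5, 649 and 581 CPM in C_CD8 WT libraries, a difference of -1.36 ± 0.18 (adjusted p = 1.07e-05). The immunoproteasome genes Psmb8 and Psmb9 were lower, with differences of -0.85 ± 0.18 and -1.47 ± 0.23, whereas Psmb10 was higher by 0.61 ± 0.15, a call that was lost without PDC WT B and with the groups alone. Wdfy4, which cDC1 need for cross-presentation of cell-bound antigen, had 107 and 96.3 CPM in PDC WT and 867, 1887 and 1726 CPM in C_CD8 WT libraries, a difference of -3.88 ± 0.34 (adjusted p = 7.34e-08).

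The phagosomal oxidase was divided within a single complex. Cybb, its catalytic membrane subunit, had 1813 and 1331 CPM in PDC WT and 27.6, 13.9 and 21.0 CPM in C_CD8 WT libraries, a difference of 6.24 ± 0.53 (adjusted p = 5.03e-08). The other membrane subunit, Cyba, was not called (0.30 ± 0.20, adjusted p = 0.255). The cytosolic subunit gene Ncf4 was lower in PDC WT cells, with a difference of -1.20 ± 0.18 (adjusted p = 3.76e-05). Cybb was the one subunit gene on the list that was called higher.

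Costimulation and maturation genes were lower in PDC WT cells in 16 of 22 cases (19.5% of all genes tested), 2 were higher (18.2%) and 4 not called. Their median was -4.46, or -3.81 with the 2 genes that had no read in the PDC WT libraries set at their bound against a floor of 3 reads. Cd86, a ligand of CD28, had 11.9 and 9.20 CPM in PDC WT and 772, 533 and 591 CPM in C_CD8 WT libraries, a difference of -5.90 ± 0.61 (adjusted p = 4.67e-07). Cd40, which receives help from T cells, had 4.84 and 5.31 CPM in PDC WT and 87.9, 71.0 and 76.0 CPM in C_CD8 WT libraries, a difference of -3.95 ± 0.19 (adjusted p = 6.11e-11). Cd83, a surface marker of maturing dendritic cells, had 100 and 27.9 CPM in PDC WT and 2771, 1227 and 3268 CPM in C_CD8 WT libraries, a difference of -5.24 ± 0.75 (adjusted p = 2.46e-05). The migration receptor gene Ccr7 had 76.7 and 22.6 CPM in PDC WT and 1610, 348 and 965 CPM in C_CD8 WT libraries, and C_CD8 WT C was the lowest of its group in both Cd83 and Ccr7. Ccr7 differed by -4.29 ± 1.10 (adjusted p = 0.00483), and was not called without PDC WT B.

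The 2 subunits of IL-12 had opposite signs. Il12b, the p40 chain, had 0.133 and 0.0492 CPM in PDC WT and 344, 96.6 and 382 CPM in C_CD8 WT libraries, a difference of -11.42 ± 1.49 (adjusted p = 8.55e-06). Il12a, the p35 chain, had 25.1 and 3.39 CPM in PDC WT and 0, 0.0479 and 0 CPM in C_CD8 WT libraries. The C_CD8 WT libraries held a single Il12a read, and the ratio of PDC WT to C_CD8 WT levels was 878 (95% counting interval 157 to 34716; adjusted p = 0.000113). The 2 PDC WT libraries themselves lay well apart in Il12a, with A above B. The ratio was 201 without PDC WT A and 1489 without PDC WT B, and at least 189.6 without C_CD8 WT C, which held the read.

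Of 25 chemokine and cytokine genes, 18 were lower in PDC WT cells (19.5% of all genes tested), 2 higher (18.2%) and 5 not called. Their median was -6.66, or -4.29 with the 6 genes that had no read in the PDC WT libraries set at their bound. Cxcl9, which draws CXCR3-bearing T cells, had 0.444 and 0.148 CPM in PDC WT and 351, 215 and 225 CPM in C_CD8 WT libraries, a difference of -9.74 ± 0.88 (adjusted p = 1.02e-07). Il1b, an inflammatory interleukin, had 3.96 and 3.05 CPM in PDC WT and 460.5, 362 and 904 CPM in C_CD8 WT libraries, a difference of -7.36 ± 0.59 (adjusted p = 2.29e-08). Il15, the cytokine that sustains NK and memory CD8 T cells, had 0.222 and 0.393 CPM in PDC WT and 21.5, 37.1 and 35.8 CPM in C_CD8 WT libraries, a difference of -6.66 ± 0.67 (adjusted p = 3.44e-07). Il6 had no read in the PDC WT libraries and 6.09, 3.21 and 4.48 CPM in the C_CD8 WT libraries, at least 65.0-fold lower in PDC WT cells against a floor of 3 reads over both PDC WT libraries, or 30.9-fold and 34.2-fold without PDC WT A or B. Ccl4, an inflammatory chemokine, was the other gene that was higher beside Il12a, with 759 and 1899 CPM in PDC WT and 169.6, 219.7 and 400.1 CPM in C_CD8 WT libraries, a difference of 2.34 ± 0.38 (adjusted p = 9.03e-05).

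**Figure D3:**
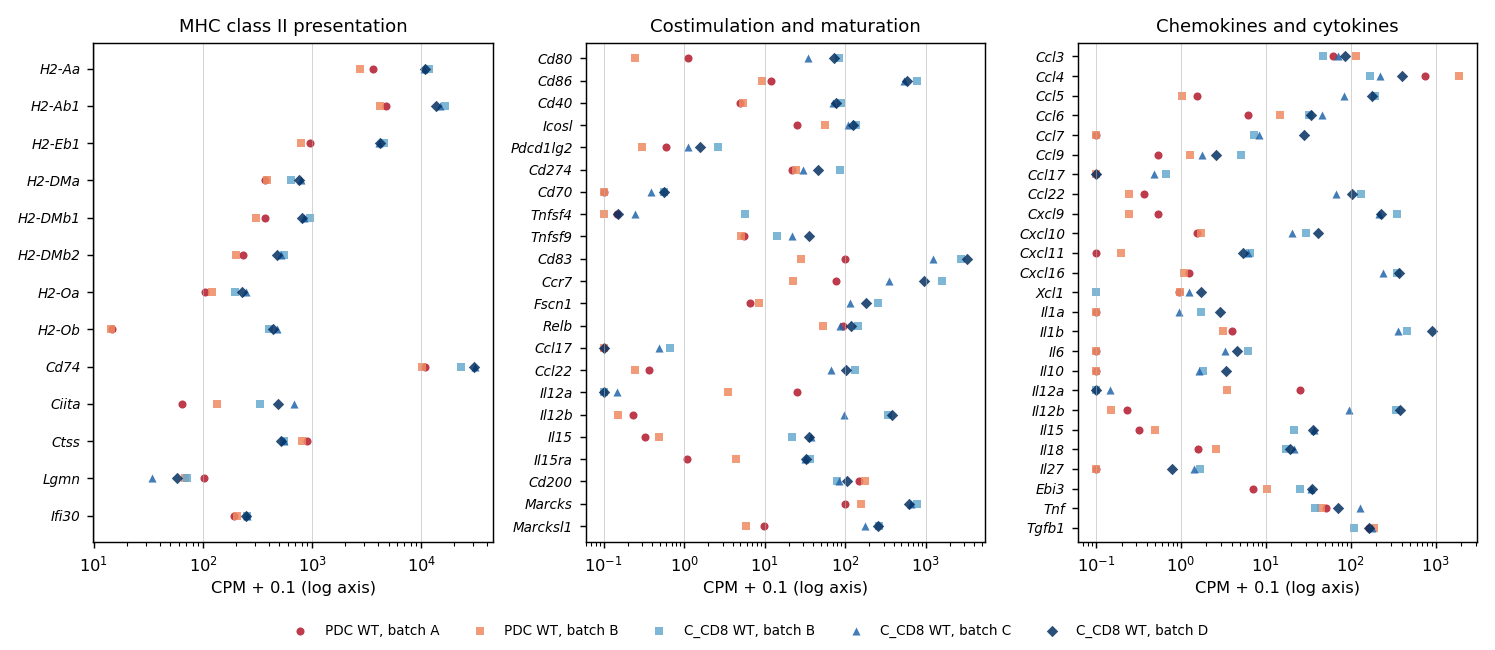
CPM + 0.1 on a log axis of each gene on the MHC class II, costimulation and maturation, and chemokine and cytokine lists, 1 point per library; red and orange points are PDC WT A and B, light to dark blue points C_CD8 WT B, C and D. Both PDC WT points lie to the left of all C_CD8 WT points in 11 of 13, 18 of 22 and 18 of 25 genes, against 29% of all genes tested, and a gene with no read is drawn at 0.1.

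Receptors for chemokines and migration held 10 genes higher (18.2% of all genes tested), 6 lower (19.5%) and 9 not called in PDC WT cells among 25, with a median of 0.99. Ccr2, the receptor by which monocytes leave the bone marrow, had 449 and 644 CPM in PDC WT and 30.6, 57.8 and 49.4 CPM in C_CD8 WT libraries, a difference of 3.57 ± 0.42 (adjusted p = 2.67e-06). Both PDC WT libraries were clear of the C_CD8 WT range. Itgax, the integrin CD11c that marks dendritic cells, was lower in PDC WT cells, at 72.7 and 74.5 CPM against 264, 418 and 358 CPM in C_CD8 WT libraries, a difference of -2.23 ± 0.18 (adjusted p = 2.16e-08).

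Of 27 cytokine receptor genes, 7 were higher (18.2% of all genes tested), 10 lower (19.5%) and 10 not called, with a median of -0.53. Flt3, the receptor that carries the duplication in the ITD mice, had 323 and 282 CPM in PDC WT and 440.1, 607 and 569.7 CPM in C_CD8 WT libraries, a difference of -0.83 ± 0.15 (adjusted p = 0.000195); within batch B, with both genotypes in the fit, the difference was -0.37 (adjusted p = 0.0536). Kit, the stem cell factor receptor, had 37.4 and 12.7 CPM in PDC WT and 299, 403 and 492 CPM in C_CD8 WT libraries, a difference of -3.99 ± 0.47 (adjusted p = 2.75e-06). Csf2ra, the alpha chain of the GM-CSF receptor, was lower, with a difference of -2.64 ± 0.20, as was Ifngr1, which binds interferon gamma, with -3.45 ± 0.44. Il7r, the IL-7 receptor of lymphoid progenitors, was higher, with 301 and 181 CPM in PDC WT and 5.67, 4.17 and 2.03 CPM in C_CD8 WT libraries, a difference of 5.93 ± 0.44 (adjusted p = 9.08e-09).

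Early lymphoid genes were higher in PDC WT cells in 10 of the 13 cases tested (18.2% of all genes tested), lower in 0 (19.5%) and not called in 3. Their median was 4.49, or 3.83 with the gene that had no read in C_CD8 WT libraries, Ptcra (not called by DESeq2), at its bound. Rag1 and Rag2 had too few reads to be tested. Dntt, the terminal transferase of developing lymphocytes, had 166 and 159 CPM in PDC WT and 0.208, 0 and 0 CPM in C_CD8 WT libraries, a difference of 11.09 ± 1.09 (adjusted p = 4.53e-07). Blnk, the linker protein of the B cell receptor, had 457 and 307 CPM in PDC WT and 1.40, 1.72 and 2.76 CPM in C_CD8 WT libraries, a difference of 7.60 ± 0.60 (adjusted p = 1.82e-08). Notch3, a Notch receptor, had 29.1 and 46.5 CPM in PDC WT and 0.520, 0.0479 and 1.67 CPM in C_CD8 WT libraries, a difference of 5.67 ± 0.69 (adjusted p = 3.66e-06). A defining B cell gene did not follow them: Ms4a1, which encodes CD20, had 0.400 and 0 CPM in PDC WT and 23.7, 34.7 and 35.9 CPM in C_CD8 WT libraries. On the whole list of 10 B cell markers, 2 were higher (18.2% of all genes tested) and 3 lower (19.5%) in PDC WT cells. The summed level was 208 and 209 CPM in PDC WT A and B and 51.6, 91.9 and 100.2 CPM in C_CD8 WT B, C and D.

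The secretory machinery of the endoplasmic reticulum was higher in PDC WT cells in 21 of 40 genes (18.2% of all genes tested), lower in 2 (19.5%) and not called in 17. Its median was 0.51 against -0.03 for all genes tested. Xbp1, the factor that expands this compartment, had 1653 and 959 CPM in PDC WT and 238, 257 and 269 CPM in C_CD8 WT libraries, a difference of 2.36 ± 0.21 (adjusted p = 7.46e-08). Sec61a1, the channel of the translocon, had 787 and 576 CPM in PDC WT and 372, 242 and 215 CPM in C_CD8 WT libraries, a difference of 1.30 ± 0.30 (adjusted p = 0.00224). Edem2, which sends misfolded glycoproteins to degradation, had 296 and 343 CPM in PDC WT and 94.4, 107 and 111 CPM in C_CD8 WT libraries, a difference of 1.61 ± 0.15 (adjusted p = 2.07e-07). The changes were small beside those of the identity genes. The 2 lower genes were Sdf2l1 (-1.24 ± 0.22, adjusted p = 0.000256) and Rpn1 (-0.50 ± 0.16, adjusted p = 0.0175), and without PDC WT A the counts were 13 higher and 1 lower. The call of Rpn1 was lost with the groups alone and without any of PDC WT A, PDC WT B or C_CD8 WT B. In batch B alone the list's median was 0.22. Plasma cells are known for the same machinery, and their markers were high in PDC WT B. The 9 plasma cell markers tested summed to 549 and 3050 CPM in PDC WT A and B and 291, 107 and 262 CPM in C_CD8 WT B, C and D, with Jchain at 28.8 and 623 CPM in PDC WT and 80.1, 26.5 and 69.4 CPM in C_CD8 WT libraries. Of the 9, 3 were called higher (18.2% of all genes tested), and 6 with batch as a block (25.7%). Jchain was called with batch as a block (3.55 ± 1.09, adjusted p = 0.0119) and not without it (2.47 ± 1.26, adjusted p = 0.133). Their part in the list's counts was not tested.

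Proliferation genes were lower in PDC WT cells in 21 of 30 cases (19.5% of all genes tested) and higher in 0 (18.2%), with 9 not called and a median of -2.02. Mki67, the antigen of cycling cells, had 1.11 and 15.05 CPM in PDC WT and 91.2, 71.9 and 60.7 CPM in C_CD8 WT libraries, a difference of -3.21 ± 0.72 (adjusted p = 0.00177). Rrm2, a ribonucleotide reductase subunit made in S phase, had 3.64 and 10.2 CPM in PDC WT and 62.4, 36.4 and 31.2 CPM in C_CD8 WT libraries, a difference of -2.65 ± 0.55 (adjusted p = 0.000992). PDC WT A was the lowest library of all 5 in both genes, and without it 10 genes of the list were called, all lower, 9 of them among the 21. The difference of Mki67 was -6.02 without PDC WT B. Genes of the early response to handling, which vary with how long cells are kept before lysis, summed to 7728 and 13970 CPM in PDC WT A and B and 12804, 20899.6 and 18116 CPM in C_CD8 WT B, C and D. Of the 12, 7 were called lower in PDC WT cells (19.5% of all genes tested) and 0 higher (18.2%), with a median of -1.07. Among the 7 were Dusp1 (-2.90 ± 0.38) and Junb (-1.83 ± 0.21), and 6 of the 7 were also lower in batch B. With the groups alone 4 were called lower. Their part in the differences was not tested.

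**Figure D4:**
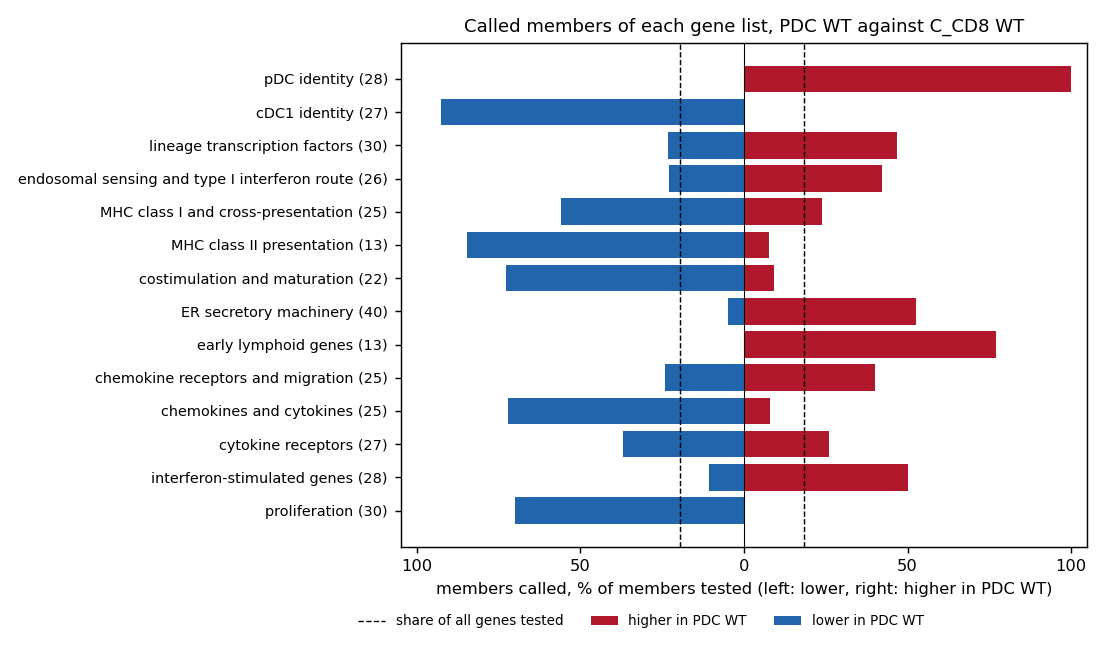
Share of the tested members of each of 14 gene lists (number tested in brackets) that were called higher (red, to the right) or lower (blue, to the left) in PDC WT than in C_CD8 WT cells; dashed lines mark the 18.2% of all genes tested that were higher and the 19.5% that were lower. PDC identity reaches 100% higher, cDC1 identity 92.6% lower. The lists were chosen with earlier results of these data known.

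Several genes used to mark other conventional dendritic cells were also higher in PDC WT cells. Of 16 genes on a list for type 2 conventional dendritic cells (cDC2), 10 were higher (18.2% of all genes tested), 4 lower (19.5%) and 2 not called. Their summed level was 3358 and 3365 CPM in PDC WT A and B and 459, 383 and 465 CPM in C_CD8 WT B, C and D. Cd4 had 599 and 641 CPM in PDC WT and 16.6, 9.06 and 12.0 CPM in C_CD8 WT libraries, a difference of 5.63 ± 0.57 (adjusted p = 3.53e-07). Cd209a, a relative of human DC-SIGN, had 581 and 581 CPM in PDC WT and 8.38, 12.5 and 9.95 CPM in C_CD8 WT libraries, a difference of 5.82 ± 0.30 (adjusted p = 9.6e-11). Other genes of the list were at low levels: Clec4a4, a lectin receptor of splenic cDC2, had 0.222 and 0.246 CPM in PDC WT and 2.34, 0.814 and 1.87 CPM in C_CD8 WT libraries, and Esam 0.0889 and 2.70 CPM in PDC WT and 10.5, 13.9 and 9.27 CPM in C_CD8 WT libraries. Both Clec4a4 and Esam were lower in PDC WT cells, with differences of -2.80 ± 0.61 and -3.02 ± 0.69 (adjusted p = 0.00154 and 0.00214), and that of Esam was -6.83 without PDC WT B and was not called with the groups alone. The part of cDC2 in the PDC WT libraries was not tested.

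The largest differences were taken by a rule as the 15 largest log2 differences in each direction among called genes with a mean of at least 10 CPM in the higher group, no overlap between the groups and the same direction in batch B, which 2394 higher and 2464 lower genes met. Among the 15 higher genes, Il17rb, a receptor chain for IL-25, had 36.4 and 56.9 CPM in the PDC WT libraries and no read in the C_CD8 WT libraries, at least 912-fold higher in PDC WT cells against a floor of 3 reads over the 3 C_CD8 WT libraries. Chdh, choline dehydrogenase, had 145 and 245 CPM in PDC WT and 3 reads in all in C_CD8 WT libraries. Its ratio was 3811 (95% counting interval 1304 to 18484), or 7409 without C_CD8 WT C and 2577 without C_CD8 WT D. Nrxn2, a neurexin known from synapses, was at least 414-fold higher, Slc22a12, a urate transporter known from kidney, at least 367-fold, and the aminoacylase gene Acy1 at least 355-fold, each with no read in the C_CD8 WT libraries. Without C_CD8 WT C these bounds were 591 for Il17rb, 268 for Nrxn2, 238 for Slc22a12 and 229.9 for Acy1. Slc22a12 was not called by DESeq2. It lies within the span of Nrxn2 on the opposite strand, and 30.1% of its exon bases overlap other genes. Il17rb and Chdh are neighbours on chromosome 14, Il17rb ending at 30008896 and Chdh starting at 30009023. The counter's use of strand is not named, so reads of overlapping genes could not be told apart. Il17rb, Chdh, Nrxn2, Slc22a12 and Acy1 were each held by both PDC WT libraries. Acy1 was nearly even, at 18.4 and 17.5 CPM in PDC WT A and B, and the others were higher in B, with Nrxn2 at 17.4 and 24.9 CPM. Mn1, a transcriptional co-regulator, stood at 30.9 and 3.25 CPM, mainly in PDC WT A, and at 0 in the C_CD8 WT libraries.

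Of the other genes among the 15, Klk1b4 and Klk1b21 are kallikreins and share 50-base words with other genes (21.3% and 29.1%), and D13Ertd608e shares 89.6%. A further 5, Cela2a, Cpa1, Clps, Ctrb1 and Try4, are digestive enzyme and cofactor genes of the pancreas, and Col3a1 is a collagen gene of fibroblasts. Try4 shares 65.6% and Cela2a 15.6% of its 50-base words with other genes. Cela2a had 12.8 and 76.5 CPM in PDC WT and no read in C_CD8 WT libraries, and Col3a1 0.578 and 47.7 CPM in PDC WT and no read in C_CD8 WT libraries. PDC WT B held most of both, and without it Col3a1 and Try4 were not called. DESeq2 called neither Col3a1 nor Try4, Cela2a, Clps and Ctrb1. A list of 16 pancreatic acinar genes, drawn up after these values were seen, summed to 130.4 and 811 CPM in PDC WT A and B and to 3.64, 3.59 and 2.50 CPM in C_CD8 WT B, C and D. Of these, 16 of 16 were called higher (18.2% of all genes tested), a count that describes the list and is not a separate test. In the 22 libraries of the series other than PDC WT the sum ran from 1.01 to 19.9 CPM, including 1.01 and 9.37 CPM in the PDC ITD libraries of the same batches. The source of these reads was not tested.

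On the lower side the 15 genes included 3 immune receptor or cytokine genes already described, Tlr11, Tlr3 and Il12b, and Gcsam. Ccl7, a ligand of CCR2, had no read in PDC WT and 7.23, 8.14 and 27.9 CPM in C_CD8 WT libraries, at least 203-fold lower in PDC WT cells, or 110.1-fold without C_CD8 WT D, the highest of the 3. Dcstamp, a membrane protein needed for fusion of osteoclasts, had no read in PDC WT and 114, 15.8 and 60.8 CPM in C_CD8 WT libraries, at least 887-fold lower, or 533-fold without C_CD8 WT B, the highest of the 3. Without PDC WT A or B, where the floor is set by the one PDC WT library left, the bounds were 96.6 and 107 for Ccl7 and 421 and 466 for Dcstamp. Zfp366, the zinc finger factor DC-SCRIPT of conventional dendritic cells, had 0.0444 and 0.0492 CPM, 1 read each, in PDC WT and 63.9, 196 and 138 CPM in C_CD8 WT libraries, a ratio of C_CD8 WT to PDC WT levels of 2879 (95% counting interval 797 to 23779.8). The early growth response gene Egr3 had no read in PDC WT and 7.60, 31.2 and 55.9 CPM in C_CD8 WT libraries, with C_CD8 WT B the lowest of the 3. The others were Clec4b2, a C-type lectin gene, Gramd2, Trabd2b, 9530059O14Rik, Gm11545, 1700009J07Rik and Gm8221, the last sharing 45.1% of its 50-base words with other genes.

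Markers of other cells of the spleen differed between libraries. Beside their counts, 18.2% of all genes tested were called higher and 19.5% lower, or 25.7% and 27.3% with batch as a block. The 12 fibroblast and stromal markers, 11 of them tested, summed to 2.27 and 228 CPM in PDC WT A and B and 2.29, 3.11 and 16.9 CPM in C_CD8 WT B, C and D. Dcn, a defining one, stood at 0.444 and 74.8 CPM in PDC WT and 0.156, 0 and 0 CPM in C_CD8 WT libraries. With all libraries 5 of the 11 were called higher, with batch as a block 9, within batch B 10, with DESeq2 or with the groups alone 1, and without C_CD8 WT B or C 2 or 3. Without PDC WT B edgeR called 0, and 1 had an unadjusted p under 0.05. Dcn differed by 9.34 ± 2.81 with all libraries (adjusted p = 0.0285) and by 3.00 without PDC WT B, and its call was lost with DESeq2 and without any of PDC WT B, C_CD8 WT B, C or D. The 11 red pulp macrophage markers summed to 17.1 and 17.8 CPM in PDC WT A and B and 123, 344 and 391 CPM in C_CD8 WT B, C and D. Of these 5 were called lower. The count was 9 with DESeq2, 8 with no filter, with the groups alone or without C_CD8 WT B, and 3 without any of PDC WT A, PDC WT B, C_CD8 WT C or C_CD8 WT D. C1qa, which encodes a complement chain made by macrophages, had no read in the PDC WT libraries and 0.156, 13.5 and 19.996 CPM in the C_CD8 WT libraries, with the values of C and D well above that of B. Its call (adjusted p = 0.0405) was lost with batch as a block (-4.74 ± 4.49, adjusted p = 0.396) and without any of PDC WT A, PDC WT B, C_CD8 WT C or C_CD8 WT D. Defining T cell genes were near the floor, with Cd3e at 0.711 and 0 CPM in PDC WT and 0.676, 0.910 and 3.33 CPM in C_CD8 WT libraries. The 12 T cell markers, of which 1 was called higher and 1 lower, summed to 101 and 77.6 CPM in PDC WT A and B and 26.2, 16.6 and 29.3 CPM in C_CD8 WT B, C and D, most of the PDC WT sum being Cd28 at 75.7 and 65.9 CPM.

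The remaining check lists gave these sums and counts, beside 18.2% of all genes tested called higher and 19.5% lower. Of 10 NK cell markers 2 were called lower, near that share. The 10 summed to 20.7 and 14.998 CPM in PDC WT A and B and 142, 128 and 153 CPM in C_CD8 WT B, C and D. Of this, Klrk1 made up 131, 113 and 131 CPM in the C_CD8 WT libraries. Endothelial markers summed to 108 and 202 CPM in PDC WT A and B and 29.8, 44.2 and 58.1 CPM in C_CD8 WT B, C and D, with 4 of 10 higher and 2 lower. Monocyte markers summed to 1649 and 2058 CPM in PDC WT A and B and 1218, 903 and 1109.8 CPM in C_CD8 WT B, C and D, with 3 of 10 higher and 4 lower. Ly6c2, which is also on the PDC list, made up 1152 and 1277 CPM of the PDC WT sums and 4.21, 6.76 and 7.45 CPM of the C_CD8 WT sums, where Lyz2 stood at 516, 371 and 520.2 CPM. Erythroid markers summed to 13.2 and 12.5 CPM in PDC WT A and B and 31.2, 79.1 and 76.5 CPM in C_CD8 WT B, C and D. Neutrophil markers summed to 3.29 and 21.5 CPM in PDC WT A and B and 15.3, 10.7 and 20.5 CPM in C_CD8 WT B, C and D, and 1 gene of each of these lists was called higher. The neutrophil gene, Ltf, had all its reads in PDC WT B and was too low to be tested with the groups alone or within batch B, and it was not called without any of PDC WT B and the 3 C_CD8 WT libraries. The erythroid count was 0 without any of PDC WT B, C_CD8 WT C or D, and 4 lower with the groups alone. The libraries also differed in sex-linked genes. Xist, made by the inactive X chromosome of females, stood at 90.8 and 270.2 CPM in PDC WT and 49.6, 0 and 0 CPM in C_CD8 WT libraries. The Y chromosome gene Ddx3y stood at 212 and 0.197 CPM in PDC WT and 178, 137 and 192 CPM in C_CD8 WT libraries. PDC WT B thus had Xist with almost no Y chromosome reads, C_CD8 WT C and D had Y chromosome reads with no Xist, and PDC WT A and C_CD8 WT B had both. None of the 5 sex-linked genes was called over all libraries by edgeR or DESeq2, and 0 had an unadjusted p under 0.05. Without PDC WT A the 4 Y chromosome genes were called lower in PDC WT cells. With batch as a block Xist was called higher (2.23 ± 0.33, adjusted p = 0.00229) and the 4 Y chromosome genes lower in PDC WT cells (Ddx3y -9.59 ± 0.34, adjusted p = 8.78e-12).

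**Figure D5:**
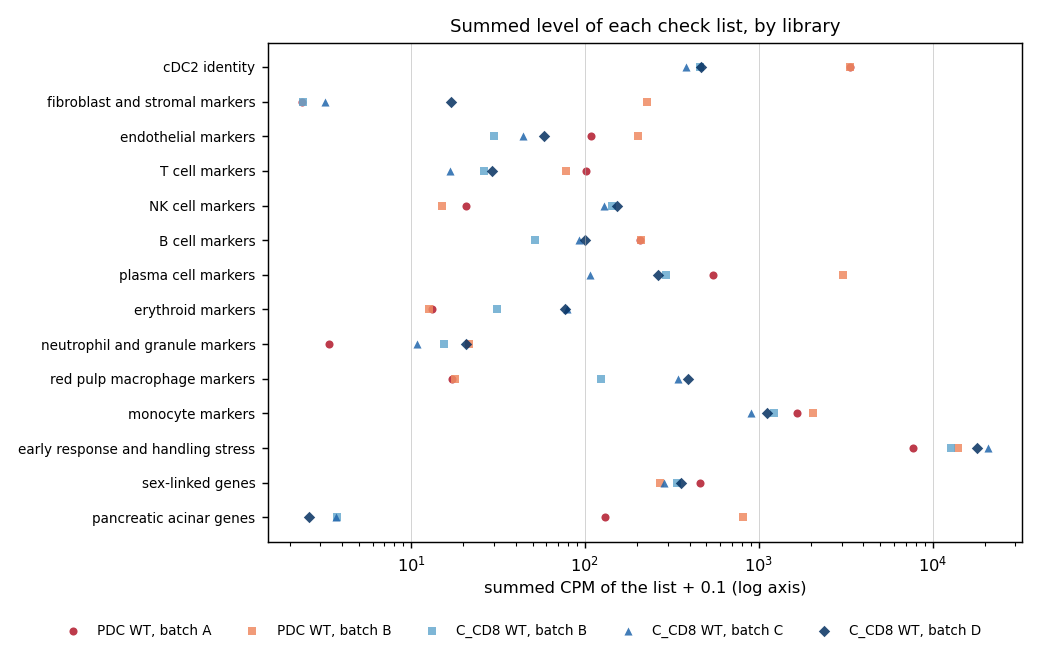
Summed CPM + 0.1 on a log axis of each list of markers for other cells or sample handling, 1 point per library; red and orange points are PDC WT A and B, light to dark blue points C_CD8 WT B, C and D. PDC WT B stands apart in fibroblast markers (228 CPM) and plasma cell markers (3050 CPM), and both PDC WT libraries in pancreatic acinar genes.

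The same subset difference was then measured in the ITD libraries. They give none of the WT group means, but they enter the same fit and share its filter and its estimate of the spread. PDC ITD and C_CD8 ITD cells differed in 6452 genes (35.7%), with 3090 higher (17.1%) and 3362 lower (18.6%) in PDC ITD cells. Of the 6833 genes called in WT, 79.7% were called in the same direction in ITD, which is 84.4% of the ITD calls, and 2 were called in opposite directions. All 28 PDC identity genes were again higher and 25 cDC1 identity genes again lower, on lists chosen with earlier results of these data known. MHC class II genes were lower in 11 cases and higher in 1 in both genotypes, and costimulation genes lower in 18 cases in ITD and 16 in WT. Proliferation genes were lower in 7 of 30 cases in ITD, near the 18.6% of all genes tested, with a median of -0.97. In WT they were lower in 21 of 30 (19.5% of all genes tested), with a median of -2.02. The difference between the genotypes in the subset difference was called for none of the 30 proliferation genes by edgeR or DESeq2, and 2 and 3 of them had an unadjusted p under 0.05 in these tests. Across all genes it was called for 5 (0.0276%), and 510 had an unadjusted p under 0.05.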

How the data were processed

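RNA of sorted spleen dendritic cells was isolated with PicoPure columns, in part after Trizol, and made into libraries with a SMART-seq v4 kit for ultra low input and a Clontech low input library kit, per the labels' protocols. The submitters' processing notes name bcl2fastq 1.8.4, Bowtie2 (listed as 0.4), DESeq2 1.8.2 and the mm10 build; for the read counter, its annotation and its use of strand, a name is not given in the sources used here, so reads of overlapping genes cannot be told apart. The authors deposited whole-number read counts per gene for 24 libraries, in 1 table. Without molecular identifiers the counting intervals (exact, 95%) and the floor of 3 reads per group cover counting error only.

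The counts were fitted in R 4.3.3 with edgeR 4.0.16 (limma 3.58.1 loaded): filterByExpr with a minimum count of 10, TMM scaling, 1 mean for each of 10 subset and genotype groups over all 24 libraries, the quasi-likelihood F test, and Benjamini-Hochberg adjustment over all 18093 genes tested, with a threshold of 0.05. Every adjusted p in the report comes from this model or its named alternatives. The SE is the log2 difference divided by the square root of F. The batch B value is the difference of 2 log2 CPM with a prior count of 2. The alternatives were RLE size factors, DESeq2 1.42.0, no filter on low counts, experiment batch as a block, the compared groups alone, batch B alone and leaving out each library. Batch is the experiment batch given in the labels, and PDC and C_CD8 libraries share only batch B; replicate numbers were not used to pair libraries. Pairs of replicates differed by more than sampling noise.

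The markers, gene lists and members were chosen with earlier results of these data known. Genes named are list members and the 15 largest differences in each direction by the rule given in the text; the pancreatic list and the genes of the difference between genotypes were chosen after their values were seen. Some list members enter the counts and are not reported here by name. Gene positions and words of 50 bases shared between genes come from GENCODE vM21 (GRCm38), promoter letters from RefSeq (GRCm38.p6). On simulated counts of 17561 genes for PDC WT against C_CD8 WT, the model recovered 22.7%, 76.1% and 88.1% of genes changed by 1, 2 and 3 on the log2 scale, with 7 false calls. The blocked fit recovered 6.06%, 61.2% and 74.6%, with 1 false call. Only 66, 67 and 67 genes were changed, against 37.8% of genes called in the data, and no batch effect was simulated. These rates therefore need not hold for the data.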

Additional observations from a re-analysis of the deposited data

Results flagged for a closer look

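The subset difference itself differed between genotypes in 5 genes by the test of that difference (PDC minus C_CD8 in ITD mice, less the same in WT mice, edgeR quasi-likelihood, Benjamini-Hochberg adjusted). Socs2, a feedback inhibitor of cytokine receptor signalling, had 76.5 and 40.8 CPM in PDC ITD A and B and 36.6, 33.7 and 46.3 CPM in C_CD8 ITD B, C and D. In WT mice it had 1.11 and 1.48 CPM in PDC and 26.4, 15.9 and 27.3 CPM in C_CD8 libraries. The subset difference of Socs2 was thus 0.59 ± 0.42 in ITD and -4.16 ± 0.54 in WT mice, and the 2 differed by 4.75 ± 0.67 (adjusted p = 0.00945). The adjusted p of Socs2 was 0.0865 with the groups alone, 0.102 and 0.0972 without PDC WT A or B and 0.0712 without PDC ITD A, so the call was lost there; over the other alternatives it ran from 1.57e-08 (DESeq2) to 0.0376. The 2 PDC ITD libraries lay far above the 2 PDC WT libraries, and the C_CD8 ITD libraries lay above the C_CD8 WT libraries by a smaller margin.

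Gm9847, a processed pseudogene that shares 76% of its 50-base words with other genes, differed by 4.41 ± 0.64 (0.51 in ITD and -3.90 in WT, adjusted p = 0.00945), so its reads may belong to another gene. Chn2, a Rac GTPase-activating protein, had 1.56 and 1.499 CPM in PDC ITD and 0.444 and 0.393 CPM in PDC WT libraries, and its subset difference differed by 2.00 ± 0.29 (-5.49 in ITD and -7.49 in WT, adjusted p = 0.00945). The same difference for 1700025G04Rik was 2.02 ± 0.28 (adjusted p = 0.00945), with 5.04 and 6.69 CPM in PDC ITD and 1.51 and 1.62 CPM in PDC WT libraries. Both genes stayed low in PDC of either genotype. Ctrc, a pancreatic digestive enzyme gene, differed by -8.63 ± 1.39 (-5.70 in ITD and 2.94 in WT, adjusted p = 0.0280). It had 0.0504 and 0 CPM in PDC ITD A and B and 1.47 and 10.03 CPM in PDC WT A and B, and the pancreatic list summed highest in the same PDC WT library, B. Ctrc shares 17.7% of its 50-base words with other genes. The call of Chn2 was lost with batch as a block (adjusted p = 0.0677). Ctrc was not called without C_CD8 WT C, C_CD8 WT D or C_CD8 ITD D (adjusted p = 0.0811, 0.0593 and 0.0665). Chn2 and Ctrc were also lost without PDC ITD A or B, Gm9847 without PDC ITD A and 1700025G04Rik without PDC ITD B. With the groups alone none of the 5 was called, and without PDC WT A only Ctrc of the 5 was called and without PDC WT B none.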

How the results depend on the processing

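The PDC WT against C_CD8 WT count of 6833 stayed within 1.5 times under every alternative run: 6864 with RLE size factors, 7220 with DESeq2, 6189 with no filter, 4655 with the 2 groups alone, 9729 within batch B (subset and genotype as terms), and 4853 to 6323 without 1 library. The block on experiment batch gave 9596. PDC ITD against C_CD8 ITD gave 6452, 9260 with the block, 9729 within batch B, 4576 with the groups alone and 4317 to 5799 without 1 library. The batch B fit is a single fit of both genotypes. The difference between genotypes gave 5 genes, 17 with DESeq2, 10 with the block, 0 with the groups alone (387 at an unadjusted p under 0.05 in edgeR) and 0 to 7 without 1 library; without PDC WT A it was 1 and without PDC WT B 0 (716 at an unadjusted p under 0.05), and without PDC ITD A or B it was 2 and 3. A check of pairing between the subsets was not possible, since they share batch B alone.

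Of the 131 named genes called, 111 were called in every test of the WT comparison in which they had enough reads, and 20 were lost in at least 1. Tlr12 changed sign, to 1.002 within batch B (-0.37 over all libraries); the cause was not tested. Ltf differed by 0 to 7.78 without 1 library, 0 without PDC WT B, which holds all its reads. Limits are the 2 PDC WT libraries, which differ in fibroblast, plasma cell, pancreatic and sex-linked genes, and the 1 batch that holds both subsets. Low depth in genes with 0 to 3 reads in a group leaves their folds as bounds or wide intervals. Replicates came from independent experiments per the series text.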
